A study of Mus musculus with 6 samples.

Results

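The genes described are the glycan enzymes of mouse inner ear organoids: glycosyltransferases, which join sugars one at a time into chains, sulfotransferases, which place sulfate groups on them, and the enzymes that make and cut hyaluronan. They were chosen by gene symbol from family names such as Galnt, Chst, Hs3st, Ext, Fut, St6galnac, B4galt, Alg and Has, and 63 of the 4994 genes in the deposited table carried such a symbol. Their names chose them and not their values, but the table itself holds only genes the authors had selected for a difference between the groups.

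The 3 PD samples were wild-type (WT) organoids, labelled as epithelial cells, grown for 10 days with 1 µM PD0325901, which blocks MEK1 and MEK2, the kinases that activate ERK. The 3 DMSO samples were WT organoids grown for the same 10 days with the solvent alone. Both groups were low-attachment cultures that also received 20 ng/mL of EGF, 10 ng/mL of bFGF, 50 ng/mL of IGF and 3 µM of CHIR99021, which inhibits GSK3, with new medium every 2 days, so the controls carried growth factors that themselves act through MEK. RNA was sequenced from stranded mRNA libraries to ask how the inhibitor acts on hair cell formation. The labels name no separate cultures behind the samples of a group, so each p-value covers the spread among these 6 libraries alone, and that spread may be technical.

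Glycans are built in the endoplasmic reticulum and the Golgi by enzymes that each add a particular sugar in a particular linkage. Proteoglycans carry long chains of heparan sulfate or chondroitin sulfate, whose sulfate pattern sets which growth factors they bind, and heparan sulfate is a co-receptor for FGF. Hyaluronan is a sugar chain with no protein core, made at the cell membrane, and in the developing inner ear it helps to shape the semicircular canals. N-glycans are attached to asparagine, mucin-type O-glycans start with N-acetylgalactosamine (GalNAc) on serine or threonine, and both often end in sialic acid or fucose.

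Each value below is the authors' normalized signal for a gene in a sample, a scale that the file header does not name and that acts per unit of gene length. Listed values summed to between 290560 and 296997 in PD samples and between 289255 and 293278 in DMSO samples, and the sequencing depth is unknown. A log2 difference is PD minus DMSO on log2(value + 1), with its SE, and genes with a limma adjusted p under 0.05 were called. In bulk RNA, fewer cells of a type and less RNA per cell cannot be told apart. Of the marker lists, all 10 mesenchyme genes were listed and 8 rose, with summed levels of 3975 to 4489 in PD samples and 1738 to 1912 in DMSO samples. Lum, Dcn and Vim carried most of that sum. Col1a1 and Col1a2 were not called, at 0.670 ± 0.616 and 0.133 ± 0.0462 in PD and 0.903 ± 0.246 and 0.0167 ± 0.0153 in DMSO. Of 9 chondrocyte genes 4 were listed and all 4 rose, with sums of 1311 to 1494 in PD samples and 669.8 to 784 in DMSO samples, while Acan, Col2a1, Comp, Hapln1 and Col10a1 were not analysed here. Of 13 otic epithelium genes 10 were listed: Epyc, Cdh1 and Oc90 rose, and Otol1, Krt18, Krt8, Cldn6, Epcam, Jag1 and Sox2 fell. These 10 summed to 8439 to 8830 in PD samples and 4387 to 4928 in DMSO samples, where Epyc alone had 7259 ± 190 in PD and 999 ± 66.9 in DMSO. Of 9 hair cell genes 8 were listed: Calb1, Ptprq, Slc17a8, Myo15, Otof and Pou4f3 rose, and Espn and Tmc1 fell. Their sum was 21.7 to 25.0 in PD samples and 32.3 to 41.2 in DMSO samples, where Espn alone had 2.46 ± 0.168 in PD and 32.3 ± 4.62 in DMSO. Smooth muscle genes, 3 of 5 listed and all higher, summed to 266 to 275 in PD samples and 43.2 to 45.1 in DMSO samples. Myl9 carried nearly all of that sum, at 262 ± 5.94 in PD and 43.6 ± 0.779 in DMSO. Mylk and Tagln were low, with means of 5.65 and 1.85 in PD and 0.2 and 0.507 in DMSO. Acta2 and Cnn1 were not analysed here. Of 5 neuron genes 4 were listed and all 4 rose, at low levels, with sums of 6.92 to 7.65 in PD samples and 0.67 to 0.85 in DMSO samples. Of 5 endothelial genes 4 were listed, and Kdr, Emcn and Cdh5 rose while Tek fell, with sums of 35.7 to 42.2 in PD samples and 45.8 to 49.4 in DMSO samples. Ptprc, the one listed leukocyte gene of 4, summed to at most 0.21, and none of 4 melanocyte genes was listed. Mitochondrially encoded protein genes made up 14.9% to 15.3% of the listed sum in PD samples and 8.5% to 9.89% in DMSO samples. The part that these cell type markers play in the glycan results was not tested.

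Of the 63 glycan enzyme genes, 29 rose and 33 fell in PD organoids, and 1, St6galnac4, was not called. Among all listed genes 95.5% were called, 44.5% higher and 51.1% lower in PD. The authors' selection used this same contrast, so these counts describe the members and nothing is read from them. PD and DMSO samples were fully apart, with no overlap of their values, in 62 of the 63 members, against 95.2% of all listed genes. The median log2 difference was −0.42 over the members and −0.42 over all listed genes, and with median-of-ratios scaling it was −0.22 over the members. Higher and lower genes stood side by side within most glycan types. The size of the log2 difference reached 1 in 20 members, 7 higher and 13 lower. Levels were low in part of the set: 54 members reached a value of 1 in at least 3 samples, and in 7 both group means lay under 1. Nearest to the authors' threshold in the authors' deposited table were Ext2, with a fold of 1.52, and on the lower side Alg8 with a fold of 0.656. Genes outside that threshold are not analysed here.

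**Figure D1:**
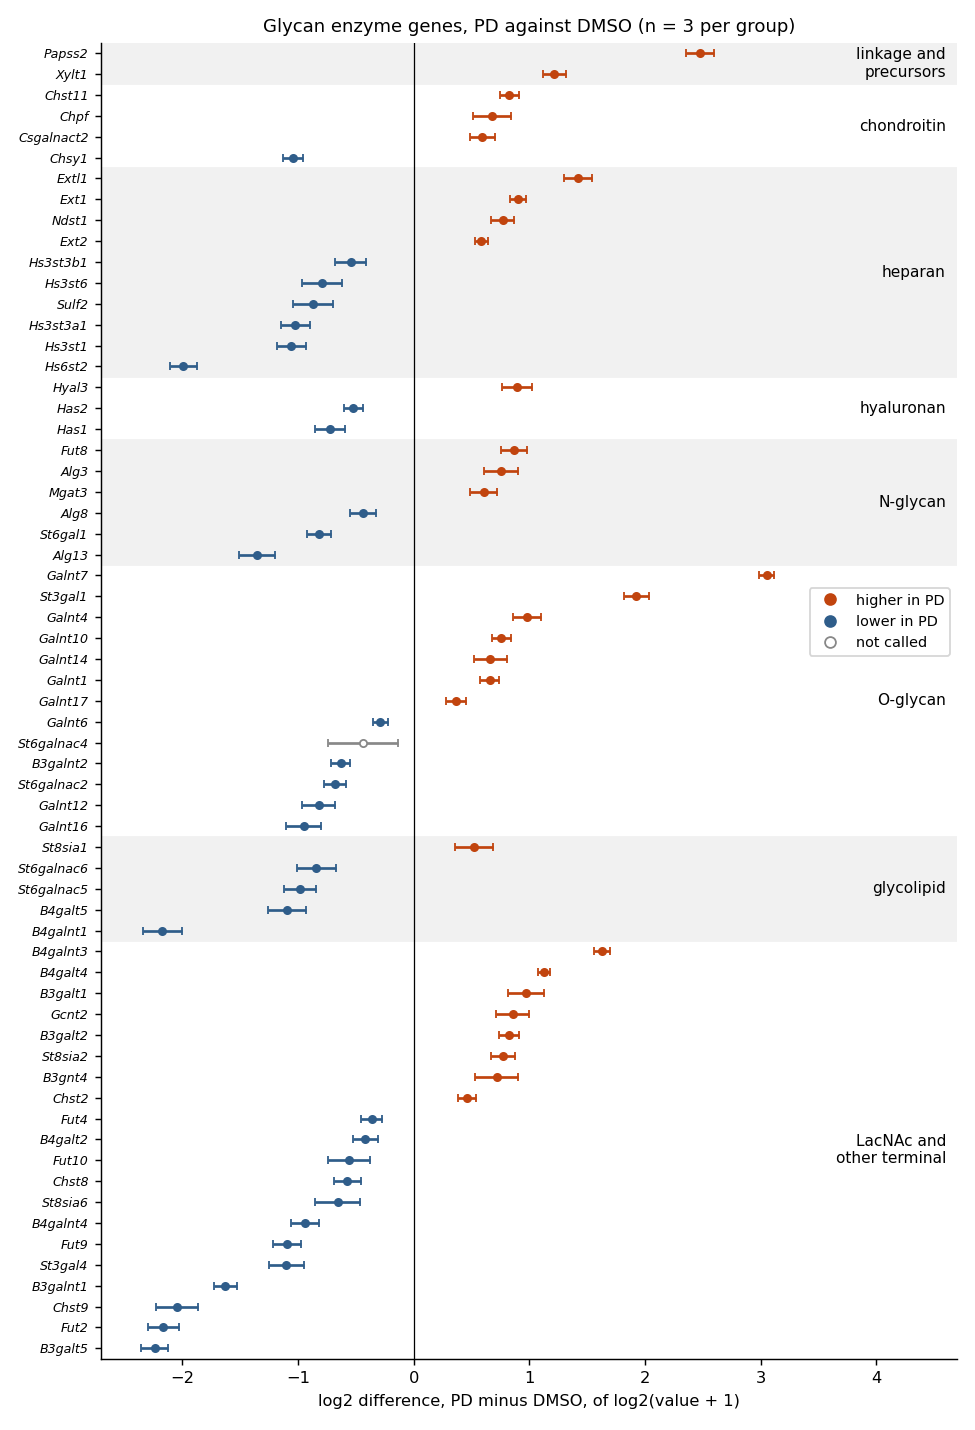
Log2 difference of log2(value + 1), PD minus DMSO, for each of the 63 glycan enzyme genes, grouped by glycan type from linkage and precursors at the top to terminal structures at the bottom; points are estimates and bars SE, with n = 3 per group. Galnt7 at 3.05 is the farthest to the right, B3galt5 at −2.24 the farthest to the left, and higher and lower genes occur in every type except linkage and precursors.

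Galnt7 had the largest rise of any member on the log2(value + 1) scale. It encodes a polypeptide GalNAc-transferase that acts on peptides already carrying GalNAc, and lies on the minus strand of chromosome 8, from 57523828 to 57653032 in GRCm38. Its levels were 92.13, 95.01 and 88.41 in PD samples, against 9.89, 10.64 and 10.07 in DMSO samples. All 3 PD values stood far above all DMSO values, with means of 91.8 ± 3.31 in PD and 10.2 ± 0.392 in DMSO (SD, n = 3 each), a ratio of 9.0. By ratio of means alone B3galt2, with all values near or under 1, was further apart, at 18.4. The log2 difference of Galnt7 was 3.05 ± 0.07 (limma adjusted p = 1.52e-07). RefSeq promoter windows, from 250 bases before a start to 50 after it, were found for 45 of the 63 members. The first sequence shown is the 250 bases before the RefSeq start of Galnt7, given because this gene had the largest log2 difference; it spans chr8:57653056-57653305 of GRCm38.p6, minus strand, and is 73.6% G and C. Capitals mark CCGGAA, the core letters that ETS factors bind, or its reverse complement TTCCGG. Many ETS factors are targets of ERK.

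Galnt7: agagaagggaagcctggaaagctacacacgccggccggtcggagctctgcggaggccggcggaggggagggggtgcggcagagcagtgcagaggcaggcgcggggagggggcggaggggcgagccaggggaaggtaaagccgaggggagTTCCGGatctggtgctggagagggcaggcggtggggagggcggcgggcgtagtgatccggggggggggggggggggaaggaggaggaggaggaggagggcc

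Read on both strands, the ETS core was present in 30.0% of the 30 windows of higher members, 6.45% of the 31 windows of lower members, 17.7% of 4606 windows of all listed genes and 14.9% of all 32851 windows. Counted by gene, it occurred in 8 of 22 higher members, 2 of 22 lower members and 21.5% of 3528 listed genes with a window. In the higher members Csgalnact2 and Galnt17 and in both lower members, Alg8 and Galnt16, the core lay across or past the start and not wholly before it. This position was read for members only, and the shares above count a core anywhere in a window. Higher members that hold the core before a start include B4galt4 and B3galt1, which add galactose, Fut8, which adds core fucose, Gcnt2, which makes branches, and Alg3, a mannosyltransferase. Their stretches are shown with the core in capitals and up to 20 bases on either side, from chr16:38742022-38742067 (plus strand), chr2:67565562-67565607 (plus), chr12:77237965-77238010 (plus), chr13:40886673-40886718 (plus) and chr16:20610780-20610825 (minus).

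B4galt4: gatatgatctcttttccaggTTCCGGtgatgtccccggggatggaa
B3galt1: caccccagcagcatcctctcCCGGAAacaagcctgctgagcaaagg
Fut8: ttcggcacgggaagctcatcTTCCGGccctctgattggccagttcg
Gcnt2: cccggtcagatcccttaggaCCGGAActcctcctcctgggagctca
Alg3: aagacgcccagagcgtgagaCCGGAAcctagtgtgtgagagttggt

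The core ends 95 bases before the start in Galnt7, 211 in B4galt4, 101 in B3galt1 and 113 in Fut8. In the stretches shown it ends 59 bases before this start of Gcnt2 and 38 before the start of Alg3. Alg3 holds another core that ends 231 bases before the same start. The AP-1 letters TGANTCA were present in 6.67% of windows of higher members, 6.45% of windows of lower members and 5.71% of windows of all listed genes. For the E-box CACGTG these shares were 6.67%, 9.68% and 9.14%, and for the hypoxia response letters ACGTG, which every CACGTG also contains, 20.0%, 22.6% and 23.6%. A match is a description of the letters in these windows, with no test, and nothing is drawn from it about any factor.

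Of 8 known symbols of sulfate donor supply and proteoglycan chain linkage, 2 were listed, and both were higher in PD organoids. The other symbols are not analysed here. Papss2 makes PAPS, the sulfate donor that all sulfotransferases use, and its loss shortens the skeleton in mice. Its levels were 16.34, 19.01 and 15.67 in PD samples, against 2.02, 2.32 and 2.36 in DMSO samples. The groups were far apart, at 17.01 ± 1.77 in PD and 2.23 ± 0.186 in DMSO (SD, n = 3 each), and the log2 difference of 2.47 ± 0.12 was the second largest rise among the members (limma adjusted p = 2.41e-06). Xylt1, the xylosyltransferase that puts the first sugar on the core protein, rose as well. It had 2.68, 2.66 and 2.64 in PD samples, against 0.57, 0.48 and 0.68 in DMSO samples, a log2 difference of 1.22 ± 0.10 (limma adjusted p = 2.48e-05). Papss2 lies on chromosome 19 from 32595790 to 32667187 and Xylt1 on chromosome 7 from 117380979 to 117673580, both on the plus strand. Outside the chosen families, 5 of 6 listed genes of epimerases, kinases and sulfate or xylose supply rose and 1 fell. Uxs1, which makes UDP-xylose for this first step, was at 58.9 ± 5.6 in PD and 24.0 ± 1.65 in DMSO (log2 difference 1.26 ± 0.09). Slc26a2, a sulfate transporter, was at 13.7 ± 1.33 in PD and 7.72 ± 0.101 in DMSO (0.75 ± 0.10). Pxylp1, the phosphatase that frees the linkage xylose for chain growth, was the one that fell, by 0.95 on the log2 scale.

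Of 4 chondroitin sulfate genes, 3 rose and 1 fell, with a median log2 difference of 0.64 that was 0.41 with a pseudocount of 5. The gene that fell was the most abundant of them. Chsy1 is a chondroitin synthase that lengthens the chain, on chromosome 7 from 66109515 to 66173798. It had 42.74, 37.00 and 46.57 in PD samples, against 87.06, 90.05 and 85.56 in DMSO samples. Every PD value lay below every DMSO value, and the log2 difference was −1.04 ± 0.09 (limma adjusted p = 2.43e-05). Chst11 moved the other way. This sulfotransferase, which places sulfate at position 4 of GalNAc and is needed for cartilage growth in mice, had 21.08, 21 and 22.35 in PD samples, against 11.27, 12.43 and 11.36 in DMSO samples (log2 difference 0.83 ± 0.08, limma adjusted p = 5.57e-05). Csgalnact2, which starts a chondroitin chain, had 9.94, 10.03 and 9.24 in PD samples, against 5.56, 6.56 and 6.23 in DMSO samples (0.59 ± 0.11, limma adjusted p = 0.0012). Chpf, the partner that chondroitin synthases need to polymerise, had 6.76, 7.76 and 7.31 in PD samples, against 5.48, 3.56 and 3.68 in DMSO samples. DMSO sample 1 stood above the other two DMSO samples for Chpf, still below all PD samples (0.68 ± 0.16, limma adjusted p = 0.00503). Because Chsy1 was so abundant, the summed level of the 4 genes was lower in PD, 80.6 ± 4.84 against 109.6 ± 2.89 in DMSO. The epimerase Dsel, which turns chondroitin into dermatan sulfate, was at 34.1 ± 2.63 in PD and 19.0 ± 1.79 in DMSO (0.82 ± 0.10).

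Of 10 heparan sulfate genes 4 rose and 6 fell: the 3 chain-building exostosins and Ndst1 rose, and Hs6st2, the 3-O-sulfotransferases and Sulf2 fell. The median log2 difference over these 10 genes was −0.67, and it was −0.39 with median-of-ratios scaling and −0.31 with a pseudocount of 5. Ext1 and Ext2 together form the polymerase that lengthens heparan sulfate. Ext1 had 53.41, 59.37 and 61.01 in PD samples, against 31.07, 30.34 and 30.01 in DMSO samples (log2 difference 0.90 ± 0.07, limma adjusted p = 1.73e-05). Ext2 had 80.74, 78.74 and 84.65 in PD samples, against 52.83, 53.11 and 55.68 in DMSO samples (0.59 ± 0.06). Both subunits were thus higher in every PD sample than in any DMSO sample. Extl1, an exostosin-like glycosyltransferase, had 9.91, 9.55 and 11.25 in PD samples, against 3.41, 3.18 and 2.99 in DMSO samples (1.42 ± 0.12, limma adjusted p = 2.23e-05). The summed exostosin level was 149.5 ± 6.63 in PD and 87.5 ± 1.04 in DMSO (SD, n = 3 each). Ndst1 removes acetyl groups from the new chain and puts sulfate in their place, the step that opens the way for later ones. It had 57.00, 51.58 and 65.59 in PD samples, against 31.13, 36.21 and 33.34 in DMSO samples (0.77 ± 0.10). Glce, the epimerase that acts after Ndst1 and is outside the chosen families, also rose and was at 49.4 ± 4.29 in PD and 31.8 ± 2.39 in DMSO (0.62 ± 0.09).

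Hs6st2 showed the largest fall among the heparan sulfate genes on the log2(value + 1) scale. It encodes a 6-O-sulfotransferase and lies on the X chromosome from 51387212 to 51681856. Its levels were 13.26, 10.30 and 12.08 in PD samples, against 44.41, 55.91 and 50.17 in DMSO samples. The DMSO mean was 4.22 times the PD mean, and the log2 difference was −1.99 ± 0.12 (limma adjusted p = 5.18e-06). Sulf2, a secreted enzyme that takes 6-O-sulfate off finished chains and so acts on the same position, fell too. It had 4.52, 2.85 and 4.21 in PD samples, against 8.88, 6.92 and 7.60 in DMSO samples (−0.87 ± 0.17, limma adjusted p = 0.00195). All 4 listed 3-O-sulfotransferases of the 7 known symbols fell, and their summed level was 24.4 ± 3.42 in PD and 48.3 ± 1.61 in DMSO. Hs3st1, the family member that makes the antithrombin-binding site, carried most of that sum. It had 13.59, 13.52 and 18.26 in PD samples, against 34.71, 30.20 and 32.03 in DMSO samples (−1.06 ± 0.13, limma adjusted p = 0.000143). Hs3st3b1 had 9.11, 6.69 and 9.01 in PD samples, against 11.74, 12.29 and 13.20 in DMSO samples (−0.54 ± 0.13), and its call was lost when samples were rescaled by median-of-ratios factors (−0.22, adjusted p = 0.164). Hs3st3a1 was low, with 0.41, 0.49 and 0.17 in PD samples, against 1.5, 1.83 and 1.92 in DMSO samples (−1.02 ± 0.13, limma adjusted p = 0.000166). By ratio of means its DMSO level was 4.91 times its PD level. It is uncertain, because it is 97.7% identical to Hs3st3b1 over 774 bases and 32.9% of its exonic length overlaps an opposite-strand gene. Hs3st6 was also low, at 0.613 ± 0.0777 in PD and 1.84 ± 0.632 in DMSO.

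**Figure D2:**
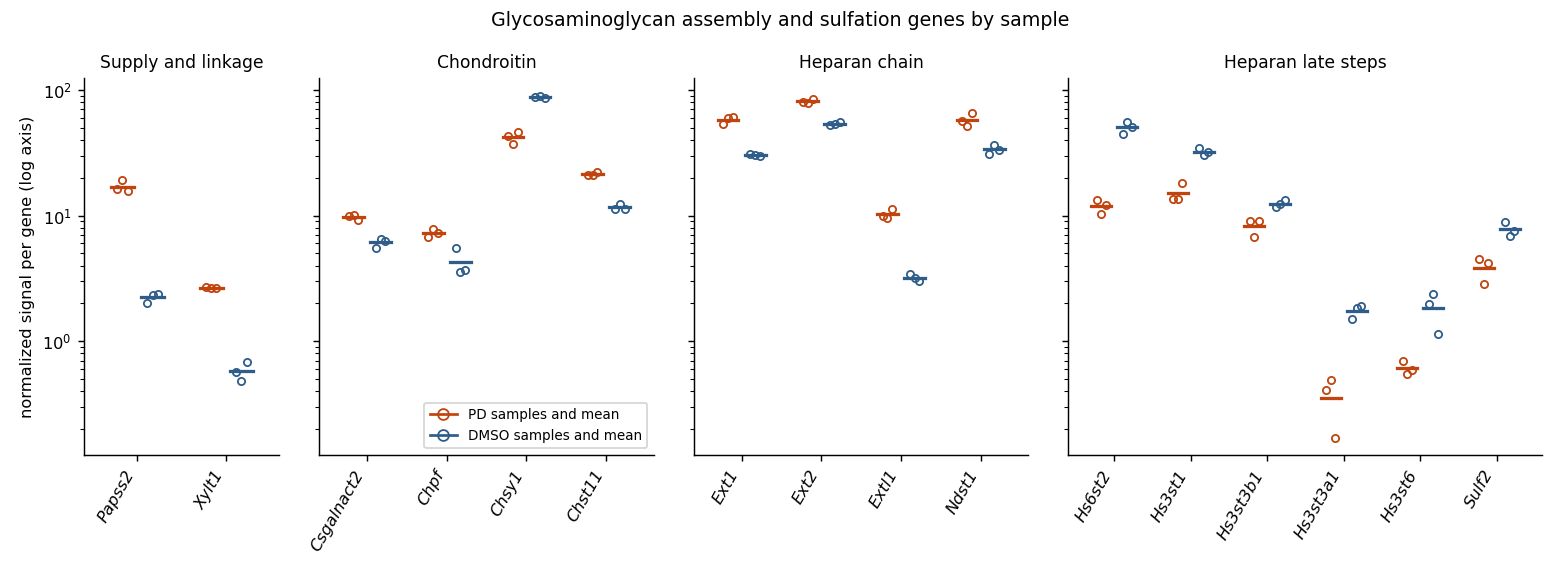
Normalized signal (log axis) of the sulfate supply, linkage, chondroitin and heparan sulfate genes in each sample, PD left of DMSO for each gene, with circles for samples and lines for means. The exostosins and Ndst1 lie higher in PD, and Hs6st2, Sulf2 and the 3-O-sulfotransferases lie lower, with no overlap between groups.

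The proteins that carry these chains moved in both directions. Of 18 listed core proteins 10 rose and 8 fell, a median of 0.69. Sdc3, a syndecan of the cell surface, was at 15.5 ± 0.183 in PD and 59.3 ± 3.37 in DMSO (log2 difference −1.87 ± 0.07). Gpc1, a lipid-anchored glypican, was at 59.4 ± 0.584 in PD and 16.8 ± 1.95 in DMSO (1.77 ± 0.09). Hspg2, the basement membrane proteoglycan perlecan, was at 89.9 ± 4.71 in PD and 39.7 ± 1.67 in DMSO (1.16 ± 0.06). Breakdown genes mostly rose, 6 of 7 listed. Hpse, the heparanase, was the exception and near the floor of the scale, at 0.0800 ± 0.0173 in PD and 0.453 ± 0.119 in DMSO.

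Both listed hyaluronan synthases fell and the one listed hyaluronidase rose, but all 3 were at low levels. Has1 had 0.65, 0.28 and 0.27 in PD samples, against 1.30, 1.43 and 1.14 in DMSO samples. The groups did not overlap, although PD sample 1 stood above the other two PD samples (log2 difference −0.72 ± 0.13, limma adjusted p = 0.00116). Has2, the synthase that mouse embryos need for heart formation, had 0.04, 0.02 and 0.05 in PD samples, against 0.37, 0.51 and 0.59 in DMSO samples. All its values lay under 1, where log2(value + 1) understates a change (−0.52 ± 0.08, limma adjusted p = 0.000558). Has2 shares 4.3% of its exonic length with its antisense gene Has2os, which also fell, and whether counting used strand is not given in the sources used here. Has1 lies on chromosome 17 from 17843323 to 17855205 and Has2 on chromosome 15 from 56665627 to 56694539, both on the minus strand. Hyal3, a member of the hyaluronidase family, had 2.82, 2.93 and 3.16 in PD samples, against 0.95, 1.03 and 1.45 in DMSO samples (0.90 ± 0.13, limma adjusted p = 0.000374). Its exons overlap those of same-strand Hyal1 over 8.16% of their length.

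The larger hyaluronan values lay outside the chosen families. Cemip binds hyaluronan and is needed for its breakdown by fibroblasts, and it had 12.95, 10.31 and 14.12 in PD samples, against 0.25, 0.27 and 0.28 in DMSO samples. Its PD mean was 46.7 times its DMSO mean, with a log2 difference of 3.40 ± 0.14 (limma adjusted p = 1.37e-06). Cemip2, a membrane protein of the same family, was at 98.2 ± 5.80 in PD and 38.2 ± 2.56 in DMSO (1.34 ± 0.07). Of 5 listed genes that bind hyaluronan 3 rose and 2 fell. The receptors were the ones that fell. Cd44 had 23.83, 24.01 and 33.01 in PD samples, against 76.47, 88.43 and 83.56 in DMSO samples (−1.60 ± 0.13). Hmmr, which also acts on the mitotic spindle, was at 6.07 ± 1.44 in PD and 34.3 ± 1.79 in DMSO (−2.34 ± 0.15). The 3 that rose encode parts of the matrix: Itih5 and Itih2 are heavy chains that are transferred to hyaluronan, and Tnfaip6 transfers them. Itih5 was at 50.2 ± 0.540 in PD and 12.5 ± 0.462 in DMSO (1.93 ± 0.07), and Tnfaip6 at 4.52 ± 0.346 in PD and 0.780 ± 0.0608 in DMSO (1.63 ± 0.11).

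**Figure D3:**
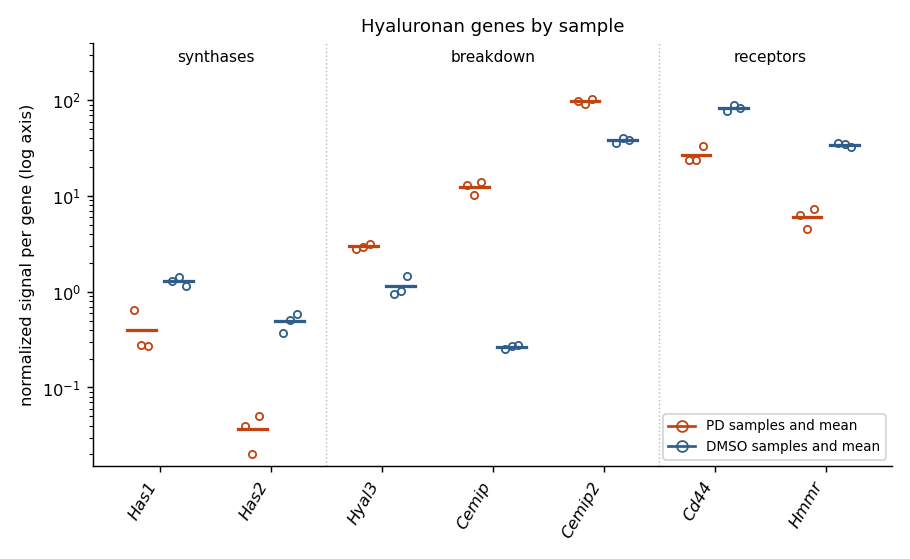
Normalized signal (log axis) of the hyaluronan synthases, breakdown genes and the receptors Cd44 and Hmmr in each sample, PD left of DMSO, with circles for samples and lines for means. The synthases lie under 2 in every sample, whereas Cemip reaches 10.31 to 14.12 in PD and stays at or under 0.28 in DMSO.

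N-glycan genes were split evenly, 3 higher and 3 lower, with a median log2 difference of 0.08 that became −0.013 with a pseudocount of 5. The early steps build the precursor on the lipid dolichol. Alg13, a subunit of the enzyme that adds its second sugar, had 10.00, 10.25 and 7.08 in PD samples, against 21.39, 26.48 and 26.30 in DMSO samples (−1.36 ± 0.15, limma adjusted p = 0.000112). Alg8, a glucosyltransferase late in that pathway, had 13.38, 16.09 and 13.82 in PD samples, against 20.36, 21.66 and 17.57 in DMSO samples. Its gap to DMSO was the smallest of the 6 (−0.43 ± 0.11), and its call was lost with median-of-ratios factors (−0.10, adjusted p = 0.408). Alg3, which adds a mannose in between, had 7.71, 7.38 and 8.29 in PD samples, against 4.77, 4.66 and 3.34 in DMSO samples (0.75 ± 0.15, limma adjusted p = 0.00169). The precursor steps thus did not move together.

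Of the later N-glycan steps, Fut8 and Mgat3 rose and St6gal1 fell. Fut8 adds fucose to the innermost sugar of the N-glycan, and had 18.93, 19.82 and 20.68 in PD samples, against 9.30, 12.25 and 9.85 in DMSO samples (0.87 ± 0.11, limma adjusted p = 0.000238). Mgat3 adds the bisecting GlcNAc, which blocks further branching. It had 4.93, 4.86 and 4.98 in PD samples, against 2.62, 3.21 and 2.88 in DMSO samples (0.60 ± 0.12, limma adjusted p = 0.00179). St6gal1, the main enzyme that caps N-glycans with α2,6-linked sialic acid, had 13.59, 12.28 and 15.32 in PD samples, against 23.98, 27.02 and 23.82 in DMSO samples (−0.82 ± 0.10, limma adjusted p = 0.000184). No sample crossed between the groups in any of these genes. Among mannose-trimming and transfer genes outside the families, 4 of 5 listed rose and 1 fell. Man1c1, a Golgi mannosidase, was at 28.4 ± 1.58 in PD and 8.41 ± 0.864 in DMSO (1.65 ± 0.10), and Dpm3, a subunit of the enzyme that makes dolichol-phosphate mannose, at 40.0 ± 6.22 in PD and 68.2 ± 2.33 in DMSO (−0.77 ± 0.11).

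Of 9 listed GalNAc-transferases, from the family that starts mucin-type O-glycans, 6 rose and 3 fell. Their summed level was 195.4 ± 5.10 in PD and 77.8 ± 4.18 in DMSO (SD, n = 3 each). Galnt7 made up 47.0% ± 2.86 of that sum in PD and 13.1% ± 0.234 in DMSO. Because Galnt7 acts on peptides that already carry GalNAc, the sum does not stand for starting enzymes alone. Galnt1, one of the broadly expressed enzymes, had 59.48, 52.34 and 61.50 in PD samples, against 34.12, 38.81 and 35.74 in DMSO samples (0.66 ± 0.08). Although its level rose, its part of the sum was 29.5% ± 1.72 in PD and 46.5% ± 0.577 in DMSO. Galnt4 had 14.55, 12.47 and 15.79 in PD samples, against 6.19, 6.69 and 7.25 in DMSO samples (0.98 ± 0.12, limma adjusted p = 0.000153). Same-strand Poc1b, which shares 8.25% of the exonic length of Galnt4, fell by 0.74 on the log2 scale. Galnt10 had 25.80, 24.12 and 27.54 in PD samples, against 15.35, 14.87 and 14.35 in DMSO samples (0.76 ± 0.08). Galnt14 and Galnt17 rose at low levels, with PD means of 1.24 ± 0.275 and 0.357 ± 0.0723, against DMSO means of 0.417 ± 0.196 and 0.0533 ± 0.0757.

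The 3 GalNAc-transferases that fell were Galnt12, Galnt16 and Galnt6, with DMSO means of 6.58, 2.57 and 0.220. Galnt12 had 3.71, 2.69 and 3.50 in PD samples, against 5.84, 7.02 and 6.87 in DMSO samples (−0.82 ± 0.14, limma adjusted p = 0.000999). Galnt16 had 0.73, 0.98 and 0.78 in PD samples, against 2.10, 3.29 and 2.31 in DMSO samples (−0.95 ± 0.15, limma adjusted p = 0.000602). Galnt6 was listed at 0 in all 3 PD samples, against 0.23, 0.20 and 0.23 in DMSO samples, so no fold is given. No member of this family above a level of 10 fell. Of 4 listed O-glycan genes outside the families all 4 rose, among them C1galt1c1, the chaperone that the core 1 galactosyltransferase needs, at 40.7 ± 5.58 in PD and 21.3 ± 1.55 in DMSO (0.90 ± 0.11). B3galnt2, which extends O-mannose glycans of dystroglycan, had 24.03, 26.20 and 22.24 in PD samples, against 36.62, 39.92 and 37.22 in DMSO samples (−0.63 ± 0.08).

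**Figure D4:**
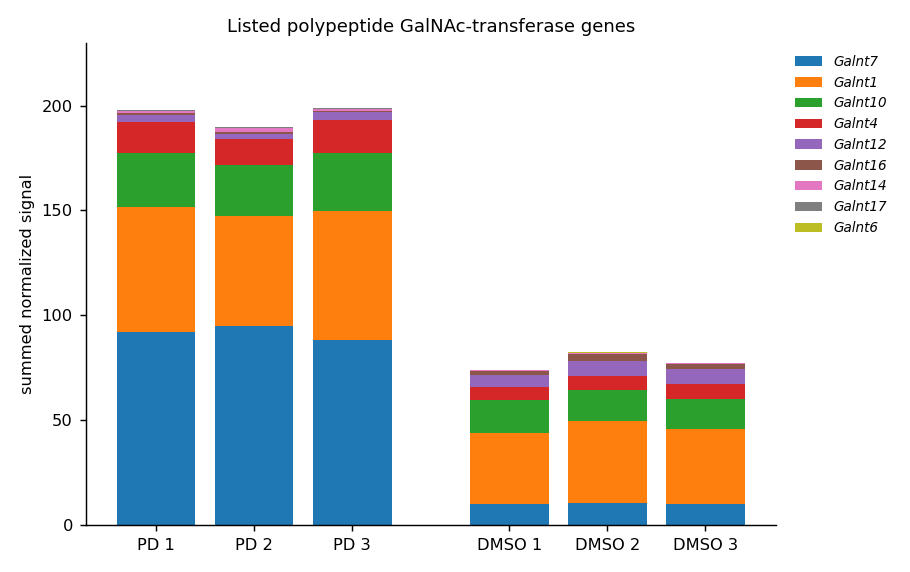
Summed normalized signal (linear axis from 0) of the 9 listed GalNAc-transferase genes in each of the 3 PD samples and the 3 DMSO samples, each stacked bar divided by gene. The bars average 195.4 in PD and 77.8 in DMSO, and Galnt7, at the base, takes 88.41 to 95.01 of each PD bar and 9.89 to 10.64 of each DMSO bar.

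Of 5 listed sialyltransferases that make α2,6 bonds 4 fell and 1 was not called, and none rose. Their summed level was 83.7 ± 5.97 in PD and 140.6 ± 12.3 in DMSO. St6galnac2, which adds sialic acid to the first GalNAc of an O-glycan, was the most abundant, with 72.12, 64.34 and 61.94 in PD samples, against 97.80, 118.79 and 103.26 in DMSO samples (−0.68 ± 0.09). St6galnac4, which acts on the sialylated core 1 chain, had 1.60, 0.18 and 0.23 in PD samples, against 1.45, 0.82 and 1.10 in DMSO samples. PD sample 1 was the highest of all 6 and the groups overlapped (−0.44 ± 0.30, limma adjusted p = 0.192), and without that sample the gene was called (−0.81, adjusted p = 0.00228). St6galnac5, which adds sialic acid to gangliosides, had 2.20, 2.03 and 2.57 in PD samples, against 4.64, 5.89 and 5.85 in DMSO samples (−0.98 ± 0.14, limma adjusted p = 0.000343). St6galnac6, of the same activity, had 1.09, 1.08 and 0.6 in PD samples, against 3.01, 1.89 and 2.45 in DMSO samples (−0.84 ± 0.17, limma adjusted p = 0.00207).

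The 2 listed α2,3 enzymes moved in opposite directions. St3gal1, which caps core 1 O-glycans, had 17.15, 14.60 and 15.69 in PD samples, against 3.33, 3.42 and 3.52 in DMSO samples. Its PD mean was 4.62 times its DMSO mean (log2 difference 1.92 ± 0.11, limma adjusted p = 3.91e-06). St3gal4, which caps lactosamine chains, had 8.71, 6.88 and 5.62 in PD samples, against 15, 17.3 and 16.09 in DMSO samples (−1.10 ± 0.15). An opposite-strand transcript, 4930581F22Rik, shares 14.1% of the exonic length of St3gal4 and also fell. The α2,8 enzymes extend sialic acid chains, and 2 of 3 rose. St8sia2, a polysialic acid synthase of neural development, had 12.36, 10.59 and 11.76 in PD samples, against 6.49, 6.60 and 5.94 in DMSO samples (0.77 ± 0.11). St8sia6 had 0.62, 0.46 and 1.45 in PD samples, against 1.76, 1.94 and 1.8 in DMSO samples (−0.66 ± 0.19), and its call was lost with median-of-ratios factors (−0.46, adjusted p = 0.0662).

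Both listed genes of sialic acid supply fell, and the log2 difference of Cmas was larger than that of any sialyltransferase. Cmas, which makes CMP-sialic acid and is outside the chosen families, had 31.49, 31.20 and 32.71 in PD samples, against 189.96, 200.98 and 200.07 in DMSO samples. Its DMSO mean was 6.20 times its PD mean (−2.59 ± 0.05, limma adjusted p = 1.52e-07). Gne, which starts sialic acid synthesis, had 7.40, 8.45 and 12.42 in PD samples, against 16.27, 18.88 and 18.78 in DMSO samples (−0.89 ± 0.18). Over all 7 listed sugar nucleotide genes 2 rose and 5 fell, a median of −0.86. Galk1, which activates galactose, was at 32.4 ± 2.93 in PD and 69.7 ± 2.18 in DMSO (−1.09 ± 0.08), and Gnpnat1, an enzyme of UDP-GlcNAc synthesis, was at 38.6 ± 3.55 in PD and 17.5 ± 2.70 in DMSO (1.10 ± 0.12).

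Except for Fut8, all listed fucosyltransferases fell, 4 of 4. Fut2, the secretor enzyme of epithelia that adds α1,2-linked fucose, dominated their sum. It lies on chromosome 7 from 45648591 to 45666394, and had 25.75, 20.35 and 17.35 in PD samples, against 95.10, 99.73 and 95.98 in DMSO samples. The DMSO mean was 4.58 times the PD mean, with a log2 difference of −2.16 ± 0.13 (limma adjusted p = 5.28e-06). Together the 4 genes summed to 26.0 ± 3.94 in PD and 107.0 ± 3.92 in DMSO. Fut9 and Fut4 make Lewis x type structures. Fut9 had 1.58, 1.58 and 1.75 in PD samples, against 4.23, 5.12 and 4.54 in DMSO samples (−1.09 ± 0.12), and Fut4 stayed under 1 in all samples, at 0.430 ± 0.0600 in PD and 0.840 ± 0.114 in DMSO. Fut4 lost its call with median-of-ratios factors (adjusted p = 0.0506). Fut10 had 2.74, 2.32 and 3.31 in PD samples, against 4.19, 5.95 and 3.77 in DMSO samples (−0.56 ± 0.18, limma adjusted p = 0.0189). Fut10 also lost its call with median-of-ratios factors (adjusted p = 0.162), and without PD sample 2 (adjusted p = 0.0622) or DMSO sample 2 (adjusted p = 0.0550).

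**Figure D5:**
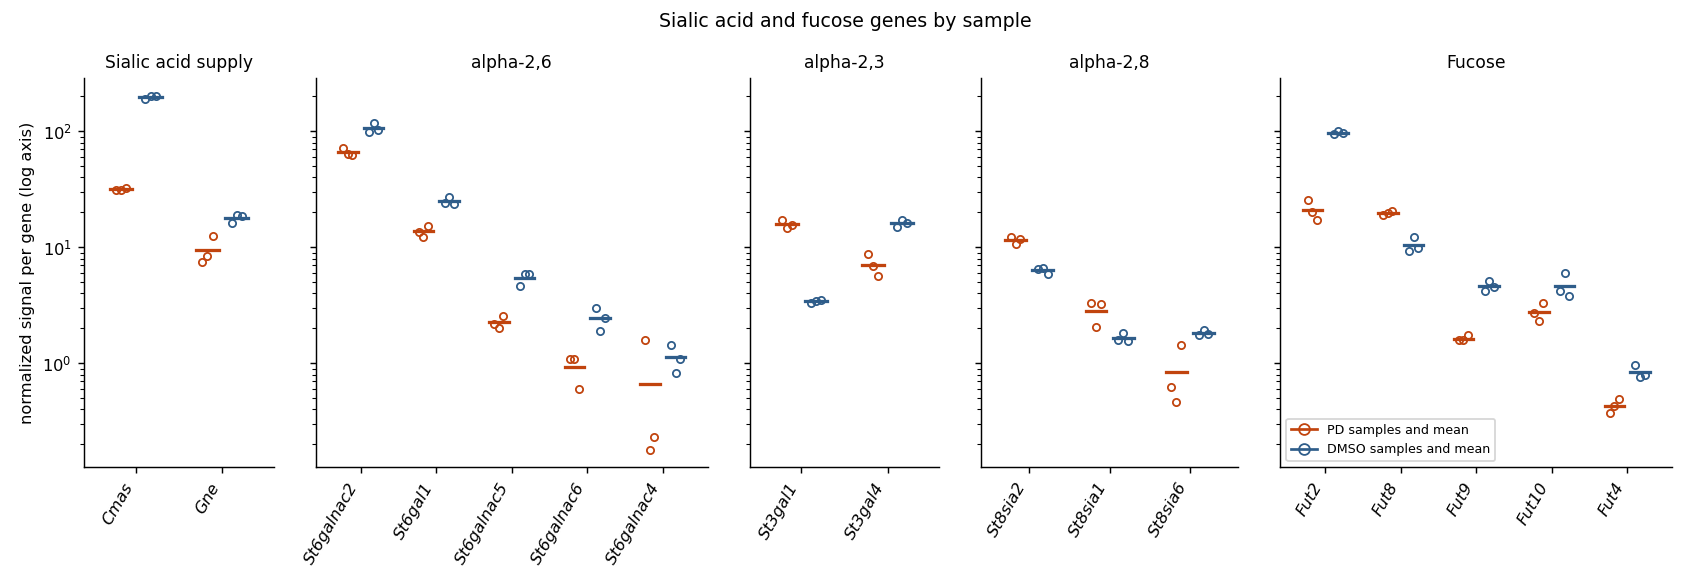
Normalized signal (log axis) of the sialic acid supply genes, the sialyltransferases by linkage and the fucosyltransferases in each sample, PD left of DMSO, with circles for samples and lines for means. Fut2 lies at 17.35 to 25.75 in PD and 95.10 to 99.73 in DMSO, and among the fucosyltransferases Fut8 alone lies higher in PD.

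Of 5 glycolipid genes 4 fell and 1 rose, a median of −0.98 that was −0.52 with a pseudocount of 5. B4galt5 makes lactosylceramide, from which most gangliosides are built, and had 6.33, 5.95 and 6.40 in PD samples, against 11.20, 17.80 and 14.92 in DMSO samples (−1.09 ± 0.16, limma adjusted p = 0.000437). B4galnt1, the GM2 and GD2 synthase, showed the largest fall of them, with 0.39, 0.16 and 0.15 in PD samples, against 3.40, 5.30 and 5.11 in DMSO samples (−2.17 ± 0.17, limma adjusted p = 1.82e-05). It lies on chromosome 10 from 127165225 to 127172330. Opposite-strand Slc26a10 shares 20.7% of its exonic length and fell by 1.55 on the log2 scale, so these 2 cannot be told apart where they overlap unless strand was counted. St8sia1, the GD3 synthase, rose slightly, with 3.28, 2.04 and 3.23 in PD samples, against 1.60, 1.81 and 1.55 in DMSO samples (0.52 ± 0.16, limma adjusted p = 0.0158). The call was lost without PD sample 1 (adjusted p = 0.0529) or PD sample 3 (adjusted p = 0.0503). Of the genes outside the families all 3 listed rose. Gal3st1, the sulfatide synthase, was at 4.52 ± 0.443 in PD and 0.697 ± 0.245 in DMSO (1.71 ± 0.14), and A4galt, the Gb3 synthase, at 3.20 ± 1.35 in PD and 0.410 ± 0.151 in DMSO (1.53 ± 0.22). Ugt8a, the galactosylceramide synthase, had 0.91, 0.45 and 1.06 in PD samples, against 0.49, 0.33 and 0.09 in DMSO samples, so its groups overlapped and both means lay under 1. B3galnt1, which extends Gb3 to globoside and was counted with the terminal genes, fell and had 4.59, 4.39 and 4.74 in PD samples, against 16.18, 17.12 and 15.33 in DMSO samples (−1.63 ± 0.10, limma adjusted p = 5.48e-06).

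Galactosyltransferases extend the outer chains, and the 6 listed ones of the B3galt and B4galt families were split between 3 higher and 3 lower. B4galt4 had the highest level of all 63 members, 267.10, 269.09 and 272.59 in PD samples, against 116.93, 125.33 and 126.73 in DMSO samples. Values within each group were close together and the PD mean was 2.19 times the DMSO mean (log2 difference 1.13 ± 0.05). B3galt5, which makes type 1 chains in epithelia, had 1.11, 1.20 and 1.09 in PD samples, against 8.67, 9.69 and 8.84 in DMSO samples. This was the largest fall among the members on the log2(value + 1) scale (−2.24 ± 0.11, limma adjusted p = 2.86e-06). B3galt1 and B3galt2, of the same family, rose at low levels, to 1.83 ± 0.596 and 0.857 ± 0.160 in PD, against 0.423 ± 0.0252 and 0.0467 ± 0.0208 in DMSO. B4galt2 had 11.76, 14.12 and 11.95 in PD samples, against 15.59, 17.69 and 18.23 in DMSO samples (−0.42 ± 0.11). B4galt2 is uncertain because same-strand Ccdc24 shares 28.2% of its exonic length, and its call was lost with median-of-ratios factors (adjusted p = 0.407).

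The enzymes of LacdiNAc, a chain end of GalNAc on GlcNAc that is found on pituitary hormones, moved in both directions. B4galnt3, which makes this end, had 50.89, 50.35 and 52.33 in PD samples, against 14.85, 16.35 and 16.56 in DMSO samples (1.63 ± 0.07, limma adjusted p = 1.52e-06). B4galnt4, the second enzyme that makes it, had 8.65, 7.15 and 7.89 in PD samples, against 17.95, 15.86 and 14.42 in DMSO samples (−0.94 ± 0.12). These 2 genes lay at about the same level in DMSO samples and far apart in PD samples. Chst9, which puts sulfate on the GalNAc, had 1.58, 1.17 and 2.02 in PD samples, against 8.12, 11.64 and 9.26 in DMSO samples (−2.04 ± 0.18, limma adjusted p = 3.11e-05). Chst8, with the same activity, stayed under 1, at 0.0633 ± 0.0777 in PD and 0.587 ± 0.211 in DMSO. Gcnt2, which forms the branches of the I blood group antigen, had 3.25, 2.89 and 4.24 in PD samples, against 1.40, 1.44 and 1.5 in DMSO samples (0.85 ± 0.14). Chst2, which places sulfate on GlcNAc, was under 1 throughout, at 0.610 ± 0.0781 in PD and 0.167 ± 0.0252 in DMSO. B3gnt4 is uncertain, since opposite-strand Diablo covers 93.2% of its exonic length, and it was at 1.20 ± 0.195 in PD and 0.367 ± 0.367 in DMSO. Over the 20 lactosamine and other terminal genes, 8 rose and 12 fell, a median of −0.49 that was −0.26 with median-of-ratios scaling.

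Taken by activity rather than by glycan, 3 of 10 listed sulfotransferases of the chosen families rose and 7 fell. Their summed level was 118.0 ± 12.4 in PD and 154.2 ± 9.28 in DMSO, beside the higher level of the sulfate donor gene Papss2 in PD. Of these 10, Chst11, Ndst1 and Chst2 were the ones that rose. Outside the chosen families Ust and Gal3st1, which are also sulfotransferases, were higher in PD and are not in this sum. The 10 listed sialyltransferases summed to 121.9 ± 9.60 in PD and 170.0 ± 13.8 in DMSO, with 3 higher, 6 lower and 1 not called. Rescaling samples by median-of-ratios factors moved the median of all listed genes by 0.24, and by upper quartiles by 0.11. With the first, 6 members that fell lost their calls, all named above with their values. The factors came from the listed genes alone, all selected for a difference, so they cannot show which scale is right. No member changed direction under any scaling.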

How the data were processed

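RNA-seq was measured in 3 PD and 3 DMSO samples. The build mm10 and the tools Trimmomatic, HISAT2, HTSeq and DESeq2 come from the submitters' processing notes, and for their versions, their order, the gene annotation and the use of strand in counting nothing is given in the sources used here. For each gene the authors deposited a normalized signal in every sample, with 2 decimals and no scale in the header. The smallest nonzero values fell with exonic length (medians of 0.26, 0.10 and 0.04 in 3 classes of 121 genes, shortest to longest), so the signal acts per length. It is not a read count, so depth is unknown and no counting interval is given. The authors also deposited group means, the PD over control fold ratio with its log2, and p-values raw and adjusted. In all 4994 genes the deposited fold was 1.5 or more, up or down, and the deposited adjusted p-value no higher than 0.0499, so the table is a selection on these samples.

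Columns were matched to samples by name. GENCODE M21, on GRCm38 (the assembly of mm10), held 4988 of the gene identifiers and lacked 6. limma 3.58.1 in R 4.3.3, with its prior variance following the level, was fitted to log2(value + 1) of all 4994 genes without a block or a filter, with Benjamini-Hochberg adjustment over all of them. Errors are SD for means and SE for log2 differences. The fit was tested on simulated data.

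Members, gene lists, markers and motifs were chosen with earlier results of these data known. Full statistics go to at most 5 members per glycan type with the largest difference and a group mean of at least 1, plus the hyaluronan, sulfate donor and Sulf genes; other members get an adjusted p only where their call is open or changes with a setting; pathway genes outside the families are given by counts with up to 3 examples by smallest adjusted p. Other values named, those of Gne, Slc26a2, Glce, Hpse, Cd44 and genes overlapping a member, were chosen after they were seen. One gene that the rule selects is not reported here. Overlaps were read from the annotation and near-identical transcripts from blastn 2.17.0 at 95% identity over at least 500 bases. Promoter sequences are from RefSeq on GRCm38.p6. Summaries used Python 3.11.15 and pandas 2.3.3.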

Additional observations from a re-analysis of the deposited data

How the results depend on the processing

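Counts of called genes stayed within 1.5 times their value under every alternative run, and no member changed direction. The members called numbered 56 with median-of-ratios scaling, 53 of 54 with a filter of at least 1 in at least 3 samples, and 61 to 62 without single samples. Deviations of same-numbered samples correlated at −0.032, −0.005 and −0.001, so no shared effect of the sample number was seen. Whether such samples were set up together cannot be told from this. As a replicate block the sample numbers left 62 members called, 29 higher and 33 lower, changed no member's call, and left 4761 of all listed genes called. Class medians are small sets of log2 differences and moved with the scale. With median-of-ratios scaling they were −0.22 over all members, 2.09 for linkage and precursors, 0.94 for chondroitin, −0.39 for heparan, 0.39 for N-glycans, −0.70 for glycolipids and −0.26 for terminal genes. With upper quartile scaling these were −0.27, 1.96, 0.79, −0.54, 0.24, −0.85 and −0.36. With equal sums without the 10 highest genes the values that moved were −0.31 over all members, 1.94 for linkage, 0.75 for chondroitin, 0.20 for N-glycans and −0.39 for terminal genes. Pseudocounts of 0.1, 0.01 and 5 gave −0.59, −0.60 and −0.12 over all members, 2.46, 2.56 and 1.03 for linkage, 0.73, 0.74 and 0.41 for chondroitin, −0.80, −0.82 and −0.31 for heparan, −1.55, −1.78 and −0.12 for hyaluronan, 0.67, 0.67 and 0.0841 for O-glycans, −1.23, −1.26 and −0.52 for glycolipids and −0.76, −0.83 and −0.19 for terminal genes. The N-glycan median turned to −0.0129 with a pseudocount of 5. With the filter the hyaluronan median turned to 0.0884, because Has2 was not tested, and the medians were −0.49 over all members, 0.11 for O-glycans and −0.66 for terminal genes. Array weights gave −0.36 over all members. Without single samples the median over all members ranged over −0.39 to −0.33 and that of terminal genes over −0.55 to −0.40. The causes were not tested beyond this. DESeq2 and edgeR were not run, because the values are not counts.

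Every gene was selected by the authors on these samples, so calls and counts are not independent evidence, and genes outside the selection are not analysed here. Depth is unknown, which limits what values under 1 can show. Leaving out a sample leaves 2 in its group.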

Other observations

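Of the members, 29 were higher and 34 lower in PD in the authors' deposited table, and no member's direction differed from the log2 difference computed here. The log2 ratio of group means exceeded the log2 fold of the authors' deposited table by a median of 0.04 over the 62 members with a ratio, and differed from it by more than 0.3 in 4 members. For St6galnac4 the ratio of means gave −0.75 and the authors' deposited table −1.89. For St8sia6 these values were −1.12 and, in the authors' deposited table, −1.70. For B4galt2 they were −0.45 and, in the authors' deposited table, −0.86, and for Chst8 −3.21 and, in the authors' deposited table, −3.68.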
